A study of Mus musculus with 4 samples.

Results

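The HoxB cluster is a run of 10 homeobox genes on mouse chromosome 11, Hoxb1 to Hoxb9 and Hoxb13. It spans 96055675 to 96229567 in build mm9, from Hoxb13 to Hoxb1, with all 10 genes on the plus strand. Its members were chosen by their symbols on that chromosome, and all 10 had a value in both genotypes, out of 20606 genes with values among 22691 listed. The measurement was the enrichment of histone H3 trimethylated at lysine 27 (H3K27me3) over each gene, by chromatin immunoprecipitation and sequencing (ChIP-seq) in mouse embryonic fibroblasts. The genotypes were Smchd1 MD1/MD1 (MD1), which the series describes as deficient for SmcHD1, and Smchd1 +/+ (WT). Both kinds of cells came from female fetuses of strain C57BL6/J at stage E13.5, and both were tested with the mouse monoclonal antibody CMA323 beside an input library without antibody. With 1 ChIP and 1 input library per genotype, 4 libraries in all, there was no replicate error and no test between genotypes was possible. The labels do not say from how many fetuses each library was made.

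Hox genes encode homeodomain transcription factors that give cells their position along the head to tail axis. They lie in 4 clusters, and within each cluster genes nearer the 3′ end are used earlier and further towards the head. H3K27me3 is laid down by Polycomb repressive complex 2 (PRC2) and marks Hox genes that a cell keeps silent, while the members a cell uses are known to carry little of it. SmcHD1 is a noncanonical SMC-family protein best known from the inactive X chromosome, with reported effects at Hox and other clustered autosomal genes. MD1 stands for MommeD1, a chemically induced nonsense allele of Smchd1.

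The deposited values are log2 enrichments, so that 1 unit is a 2-fold step, and the difference D is the MD1 value minus the WT value. The values were more widely spread in MD1, with a standard deviation (SD) over 19836 autosomal genes of 2.08 in MD1 and 1.57 in WT. Over these genes D had a median of -0.27. For a comparison among like genes, a level-matched D was also used: from each gene's D the median over 500 autosomal genes was subtracted, those of the same length quartile with the closest mean of both values. Over autosomal genes the SD of that measure was 0.86 in the shortest quartile of gene length, which holds 9 of the 10 HoxB genes, and 0.36 in the third quartile, which holds Hoxb3. Smchd1 itself stood at -3.47 in MD1 and -2.44 in WT, a value that measures a histone mark and does not check the genotype. Fibroblast genes carried little mark, with a median over 10 genes of -4.24 in MD1 and -2.91 in WT. For 15 autosomal genes of neurons, epithelium, muscle, blood and endothelium the median was 0.78 in MD1 and 0.70 in WT.

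The cluster carried more H3K27me3 in MD1 cells along nearly its whole length. The median over the 10 genes was 2.15 in MD1 and 0.77 in WT, and the median D was 1.33 (quartiles 0.99 and 1.52), a 2.51-fold higher enrichment. Of the 10 genes, 7 were at least 2-fold higher in MD1, against 1.61% of autosomal genes, and none was at least 2-fold lower, against 20.4% of autosomal genes. Hoxb2 to Hoxb6, Hoxb8 and Hoxb9 were the 7 higher genes, Hoxb7 and Hoxb1 had smaller positive differences, and Hoxb13 had a negative one. By the level-matched measure 7 were again at least 2-fold higher, against 3.16% of autosomal genes, and none was at least 2-fold lower, against 3.41%, with a median of 1.28. Hoxb8 and Hoxb4 were at least 3-fold higher, as were 0.423% of autosomal genes. With a pseudocount of 1 added to the linear enrichment, 5 of the 10 were at least 2-fold higher, against 0.176% of autosomal genes. Among 2338 other autosomal genes of the shortest length quartile whose WT value lay within the range of the HoxB genes, 2.82% were at least 2-fold higher and the median D was -0.03. The cells were measured in bulk, so a mark on more cells and more mark per cell cannot be told apart.

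**Figure D1:**
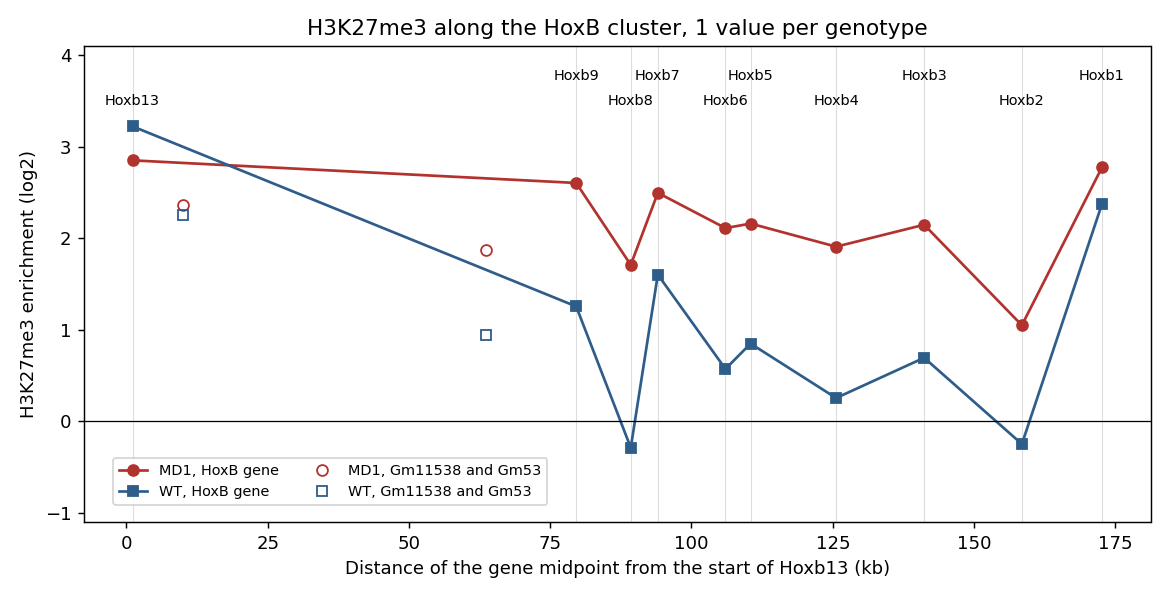
H3K27me3 enrichment (log2, vertical axis) of each HoxB gene in MD1 (red circles) and WT (blue squares) against the distance of its midpoint from the start of Hoxb13 in kb; open symbols are the 2 other listed genes inside the cluster. The MD1 points lie above the WT points everywhere except at Hoxb13, and the WT line dips below 0 at Hoxb8 and Hoxb2.

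The widest gap between genotypes was at Hoxb8, Hoxb4 came next, and Hoxb1 at the 3′ end showed a small one. Promoter sequences of these 3 genes were in the RefSeq table used, which fixed the choice, and they are printed for build GRCm38.p6, plus strand, from 250 bases before to 50 after the gene's start, with every CG dinucleotide in capitals. CG-rich promoters are the usual landing sites of Polycomb complexes in mammals. The promoters lie at chr11:96281655-96281954 for Hoxb8, chr11:96318017-96318316 for Hoxb4 and chr11:96365508-96365807 for Hoxb1.
Hoxb8: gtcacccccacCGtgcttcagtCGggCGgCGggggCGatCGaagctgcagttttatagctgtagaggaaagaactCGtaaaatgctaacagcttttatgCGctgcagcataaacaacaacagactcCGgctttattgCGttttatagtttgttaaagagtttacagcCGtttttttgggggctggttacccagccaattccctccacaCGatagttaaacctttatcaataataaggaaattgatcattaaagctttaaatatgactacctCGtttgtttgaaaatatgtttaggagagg
Hoxb4: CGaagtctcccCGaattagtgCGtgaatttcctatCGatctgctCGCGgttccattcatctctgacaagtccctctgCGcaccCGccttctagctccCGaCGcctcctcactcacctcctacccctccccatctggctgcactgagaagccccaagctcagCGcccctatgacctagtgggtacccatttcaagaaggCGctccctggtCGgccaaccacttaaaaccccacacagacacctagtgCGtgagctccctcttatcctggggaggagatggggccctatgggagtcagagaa
Hoxb1: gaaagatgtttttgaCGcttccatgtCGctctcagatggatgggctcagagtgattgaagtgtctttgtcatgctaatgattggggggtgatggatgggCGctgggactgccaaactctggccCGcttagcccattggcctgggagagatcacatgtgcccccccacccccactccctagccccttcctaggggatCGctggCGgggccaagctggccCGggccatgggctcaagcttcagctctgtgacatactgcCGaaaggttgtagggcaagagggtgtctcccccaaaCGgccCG
The Hoxb8 promoter held 13 CG dinucleotides, that of Hoxb4 held 14 and that of Hoxb1 held 10, against a median of 7 (quartiles 3 and 20) over 32851 mouse promoters of the same 300 bases. At least 13 were found in 37.9% of these promoters, at least 14 in 36.3% and at least 10 in 43.5%. The 2 promoters of genes with a wide gap thus had only slightly more CG than that of Hoxb1. The motif TTTAT, the core bound by the caudal homeobox (Cdx) factors that act on Hox clusters, occurred 6 times in the Hoxb8 promoter, counting both strands and with no overlap between matches. At least as many were found in 0.502% of promoters, while those of Hoxb4 and Hoxb1 held none. The motif has only A and T, and the GC content was 42.3% in the Hoxb8 promoter, 58% in that of Hoxb4 and 59.3% in that of Hoxb1. That share was not adjusted for base content. TAAT, also counted, occurred 2 times in the Hoxb8 promoter, and 34.1% of promoters held at least as many. It occurred once each in those of Hoxb4 and Hoxb1, and 58% of promoters held at least 1. The motif TGATNNAT, the composite site for Pbx and Hox proteins known from the autoregulation of mouse Hoxb1, was present once in the Hoxb1 promoter, at base 89 of the printed run. It occurred once in that of Hoxb8, at base 240 on the minus strand and overlapping no TTTAT, and not in that of Hoxb4. On either strand it was found in 8.85% of promoters. The motifs were chosen after the sequences had been read, and a match is a description of these letters and not evidence of binding.

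The central genes, Hoxb4 to Hoxb8, act mainly in the trunk and had a median D of 1.54, against 1.30 for Hoxb1 to Hoxb3. That gap of 0.24 was 0.097 after level matching and 0.43 between means. Hoxb8, which in mouse is needed for normal grooming behaviour and for spinal cord and blood lineages, stood at 1.71 in MD1 and -0.29 in WT. That is a 3.99-fold difference, and 37 of 19836 autosomal genes had a D at least as large, Hoxb8 included. It stood at percentile 93.1 of autosomal genes in MD1, against percentile 58.8 in WT, where it was the lowest of the cluster. Its mm9 position is chromosome 11, 96143219 to 96146639.

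Hoxb4, a factor that expands blood stem cells when overexpressed, stood at 1.91 in MD1 and 0.26 in WT, a D of 1.65. Hoxb6, expressed in lateral mesoderm and limb buds, stood at 2.11 in MD1 and 0.57 in WT. Hoxb5, which acts in the neural crest of the gut, stood at 2.16 in MD1 and 0.85 in WT. Their folds of MD1 over WT were 3.14 for Hoxb4, 2.90 for Hoxb6 and 2.48 for Hoxb5. All 3 lay at or above percentile 95.0 of autosomal genes in MD1, against percentiles of 70.0 to 81.9 in WT.
Hoxb7, expressed in the kidney's collecting duct tree, departed from its neighbours. It stood at 2.50 in MD1 and 1.60 in WT, a D of 0.89, and was the third highest gene of the cluster in WT. The interval of Hoxb7 begins 1320 bp beyond the end of Hoxb8, and it stood above Hoxb8 by 0.79 in MD1 and by 1.89 in WT.

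Of the anterior genes, which pattern the hindbrain, Hoxb3 and Hoxb2 were higher in MD1 to a like degree. Hoxb3 stood at 2.15 in MD1 and 0.70 in WT, a D of 1.45. It is the longest gene of the cluster at 24805 bp, and its ratios in lowest terms had the largest whole numbers, 1391 to 307 in MD1 and 536 to 341 in WT. Hoxb2, which acts with Hoxb1 in facial motor neurons, stood at 1.05 in MD1 and -0.25 in WT, a D of 1.30. It was the lowest gene of the cluster in MD1, at percentile 84.5 of autosomal genes, against percentile 59.5 in WT.
Hoxb1, which sets the identity of the hindbrain segment that forms the facial nerve, was already highly marked in WT. Its values were 2.78 in MD1 and 2.38 in WT, at percentile 99.3 of autosomal genes in MD1 and 98.5 in WT, and its D of 0.40 is a 1.32-fold difference. The step from Hoxb2 to Hoxb1, 11743 bp apart, was 1.72 in MD1 and 2.62 in WT.

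The posterior genes split. Hoxb9, which shapes the ribs, stood at 2.60 in MD1 and 1.26 in WT, a D of 1.35, in the same range as the central genes. Hoxb13, which limits tail and spinal cord growth in mouse and acts in the prostate, lies apart, 74.73 kb from Hoxb9. It was the most enriched gene of the cluster in both genotypes, at 2.85 in MD1 and 3.22 in WT. Its D of -0.37 was the only negative one of the 10. After centring on the autosomal median it was -0.10, and after level matching it was -0.46.

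The deposited values take the form of a ratio of whole numbers times 1 constant per genotype, as a ChIP count over an input count would, and the ratios are known only in lowest terms. These were 107 to 32 in MD1 and 39 to 49 in WT for Hoxb8. For Hoxb4 they were 142 to 37 in MD1 and 51 to 44 in WT, and for Hoxb2 36 to 17 in MD1 and 9 to 11 in WT. The Hoxb13 ratios were 59 to 8 in MD1 and 172 to 19 in WT. In MD1 the Hoxb5 ratio was 32 to 7 and the Hoxb6 ratio 53 to 12. The smallest whole numbers were 7 to 1 at Hoxb1 in MD1. Next, all in WT, came 7 to 4 at Hoxb5, 9 to 11 at Hoxb2 and 13 to 9 at Hoxb6. These values, too, may rest on few reads. The read counts behind them are unknown multiples, so the depth is unknown and no counting interval is given. No interval of the 10 genes overlaps another listed gene.

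**Figure D2:**
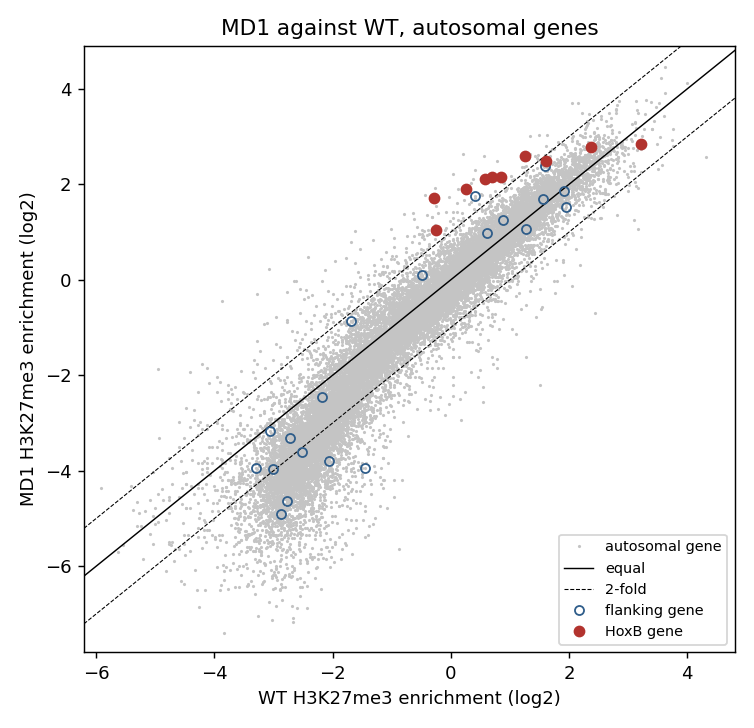
MD1 enrichment (log2, vertical axis) against WT enrichment (log2, horizontal axis) for autosomal genes (grey), the 20 flanking genes (open blue) and the 10 HoxB genes (red); the solid line marks equal values and the dashed lines 2-fold differences. The HoxB genes lie in a flat band between 1.05 and 2.85 on the MD1 axis, while their WT values run from -0.29 to 3.22.

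The HoxB genes were more alike in MD1 than in WT. Their values ran from 1.05 to 2.85 in MD1 and from -0.29 to 3.22 in WT, and the SD over the 10 genes was 0.54 in MD1 and 1.12 in WT. Over all autosomal genes the SD was the larger in MD1. Without Hoxb13 the SD was 0.52 in MD1 and 0.86 in WT, and among Hoxb2 to Hoxb9 it was 0.49 in MD1 and 0.67 in WT. The 10 genes kept much of their order, with 6 at the same rank in both genotypes and exchanges only between Hoxb7 and Hoxb9 and between Hoxb2 and Hoxb8. In MD1 9 of the 10 genes stood at or above percentile 90 of autosomal genes, and in WT 3 did, Hoxb13, Hoxb1 and Hoxb7. The genes with the highest WT values had the smallest differences, a relation that scatter in the WT value favours, since D subtracts it.

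The table lists 2 further genes inside the cluster, between Hoxb13 and Hoxb9. Gm53, the nearer to Hoxb9, stood at 1.87 in MD1 and 0.94 in WT, a D of 0.93. Gm11538, the nearer to Hoxb13, stood at 2.37 in MD1 and 2.25 in WT, a D of 0.12. From Hoxb13 through Gm11538 and Gm53 to Hoxb9, D was thus larger at each gene in turn, at -0.37, 0.12, 0.93 and 1.35.

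The differences were lower, on balance, outside the cluster. The 10 nearest genes with values on each side had a median D of -0.25, with values from -2.49 to 1.35, so that the cluster's median lay 1.58 above theirs. That gap was 0.96 after level matching, where the flanking median was 0.31. Of the 20 flanking genes, 1 passed the 2-fold limit upwards in MD1, against 1.61% of autosomal genes, and 5 passed it downwards, a share near the 20.4% of autosomal genes. After level matching 3 passed it upwards, against 3.16% of autosomal genes, and 1 downwards, against 3.41%. Many of these genes hardly carry the mark: 11 were below 0 in both genotypes, with medians of -3.79 in MD1 and -2.72 in WT.
The closest comparison is with the 8 flanking genes above 0 in both genotypes, whose median D was 0.26. Next to Hoxb13, Ttll6, encoding a tubulin polyglutamylase, stood at 1.86 in MD1 and 1.91 in WT. Calcoco2, encoding an autophagy receptor, stood at 1.06 in MD1 and 1.28 in WT. Their D values were -0.05 for Ttll6 and -0.22 for Calcoco2, and after centring on the autosomal median they were 0.22 and 0.051. After level matching they were -0.20 for Ttll6 and -0.30 for Calcoco2.
Next to Hoxb1, 78.6 kb away, Gm11529 stood at 2.38 in MD1 and 1.60 in WT, a D of 0.78. Skap1, a long gene for a T cell adaptor protein, stood at 1.26 in MD1 and 0.88 in WT. The enriched stretch ended at the same genes in both genotypes, Calcoco2 on one side and Skap1 on the other, a span of 660.7 kb with 16 genes that had values. All 16 were above 0 in MD1 and 14 were in WT, the exceptions being Hoxb8 and Hoxb2. Beyond it, Atp5g1, encoding a subunit of ATP synthase, stood at -3.97 in MD1 and -3.00 in WT. On the other side Snx11, encoding a sorting nexin, stood at -3.31 in MD1 and -2.72 in WT.

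**Figure D3:**
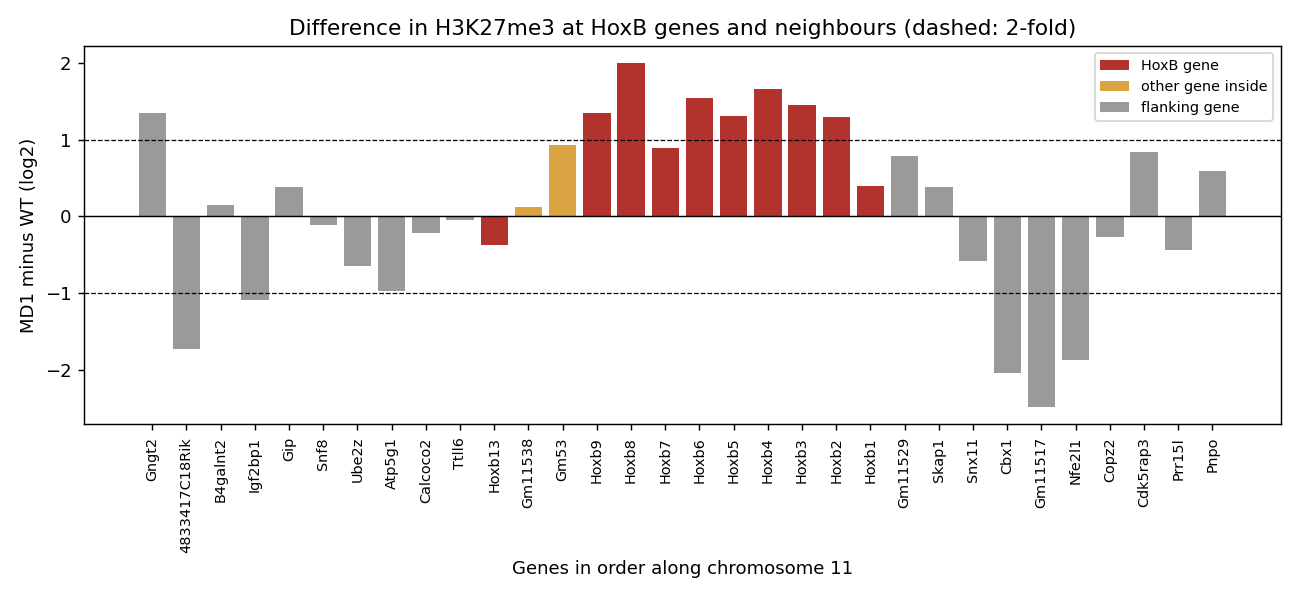
MD1 minus WT (log2, vertical axis) for the HoxB genes (red), the 2 other genes inside the cluster (yellow) and the 10 genes on each side (grey), in order along chromosome 11; dashed lines mark 2-fold. The tall positive bars run from Hoxb9 to Hoxb2, and the only flanking gene past the upper line is Gngt2 at 1.35.

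The flanking gene past the 2-fold limit, Gngt2, encoding a G protein subunit of cone photoreceptors, lies 348.6 kb from the cluster and stood at 1.76 in MD1 and 0.41 in WT. Its interval overlaps another listed gene. The largest negative differences were at Gm11517 (-2.49) and Cbx1 (-2.05), which encodes heterochromatin protein 1 beta, and these intervals overlap each other. Their MD1 ratios in lowest terms were 1 to 15 and 2 to 59, so both may rest on few ChIP reads.

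Set beside the other Hox clusters of the same libraries, HoxB had a median difference closest to that of HoxC and furthest from that of HoxD. The median D was 1.33 for HoxB, 1.49 for the 9 HoxC genes, 0.57 for the 11 HoxA genes and -0.49 for the 9 HoxD genes. The clusters hold different sets of paralogues, which these medians do not take into account. For paralogues 4 to 8 the median D was 1.54 in HoxB, 1.82 in HoxC, 0.90 in HoxA and 0.50 in HoxD. For paralogues 9 to 13 it was 0.49 in HoxB, 0.44 in HoxC, -0.34 in HoxA and -0.81 in HoxD. At least 2-fold higher in MD1 were 7 of 10 HoxB genes and 6 of 9 HoxC genes, against 1.61% of autosomal genes. In HoxA 2 of 11 genes were as high, and in HoxD none. Of the 15 such genes in all clusters, 13 lay in HoxB and HoxC. At least 2-fold lower was 1 HoxD gene, Hoxd13, against 20.4% of autosomal genes, and none in the other clusters. After level matching 2 HoxD genes were as low, Hoxd13 and Hoxd10, against 3.41% of autosomal genes. The SD over members was 0.36 in MD1 and 0.997 in WT for HoxC, 0.27 in MD1 and 0.62 in WT for HoxA, and 0.61 in MD1 and 0.68 in WT for HoxD. A smaller spread in MD1 was thus seen in all 4 clusters, with the gap between genotypes narrowest in HoxD. All clusters were measured in the same libraries, so these counts are not independent of each other, and the difference between clusters was not tested.

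**Figure D4:**
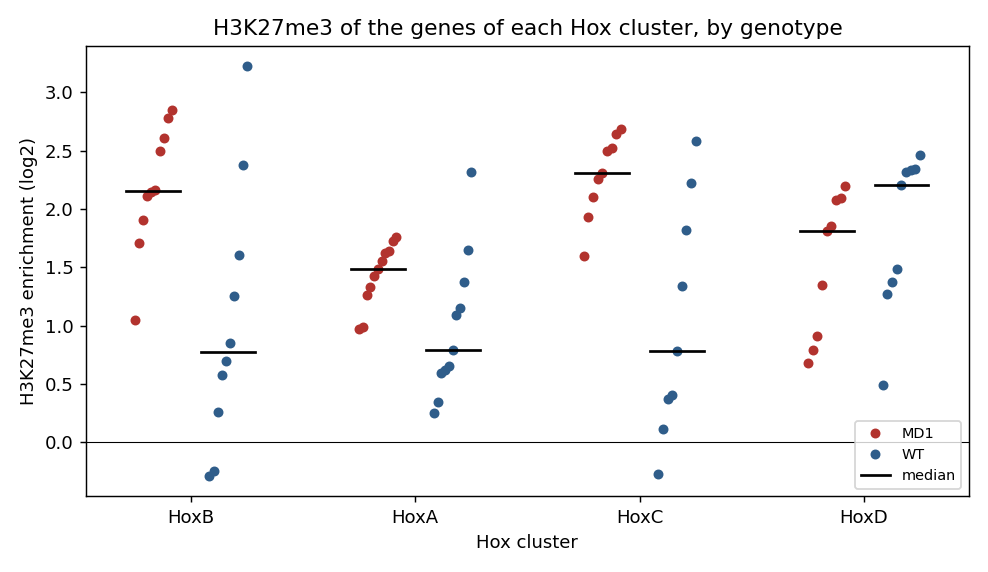
H3K27me3 enrichment (log2, vertical axis) of each gene of the 4 Hox clusters in MD1 (red, left) and WT (blue, right), with the median as a bar. The HoxB medians are 2.15 in MD1 and 0.77 in WT, and the WT points are spread further than the MD1 points.

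Along the paralogue numbers, by which Hox genes of different clusters are matched by descent, the HoxB differences were largest from 2 to 9 and lowest at 1 and 13. Hoxb4 and Hoxb3 had a larger D than each of their paralogues, the largest of which were 1.49 at paralogue 4 and 1.03 at paralogue 3. Hoxb8 (1.996) also exceeded Hoxc8 (1.74) and Hoxd8 (0.30). For paralogues 5 and 6 the HoxC genes were higher than Hoxb5 and Hoxb6, at 1.90 for Hoxc5 and 2.20 for Hoxc6.
At paralogue 9, Hoxb9 (1.35) lay between Hoxc9 (1.71) and Hoxa9 (0.54), and Hoxd9 was at -0.81. Hoxb7 (0.89) was lower than its HoxB neighbours, and its paralogue, Hoxa7, was likewise lower than Hoxa6, at 0.34 against 1.28. Paralogue 13 had small or negative differences in every cluster, from -1.30 at Hoxd13 to 0.10 at Hoxc13, with Hoxb13 at -0.37 between them.

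**Figure D5:**
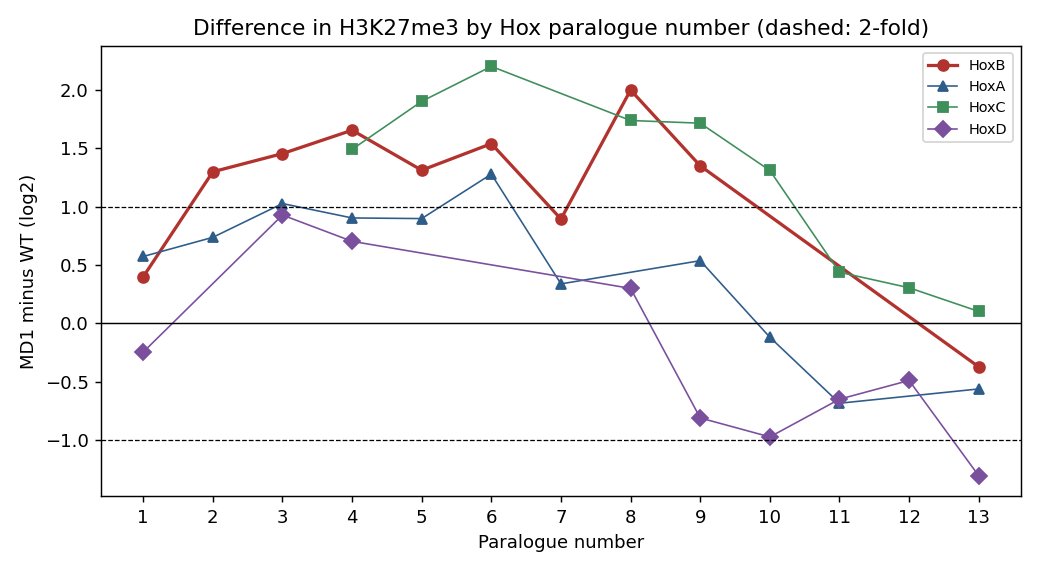
MD1 minus WT (log2, vertical axis) against paralogue number (horizontal axis) for the genes of HoxB (red), HoxA (blue), HoxC (green) and HoxD (purple); lines join the genes of a cluster and dashed lines mark 2-fold. The HoxB line lies above 1 from paralogue 2 to 9 except at 7, and below 0 at 13.

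In lists of genes that work with or upstream of Hox proteins, the median D was below 0 but above the autosomal median of -0.27. Hox cofactors of the Pbx, Meis and Pknox families had a median D of -0.16 over 9 genes. None passed the 2-fold limit upwards, against 1.61% of autosomal genes, a share at which so short a list would seldom hold any. Downwards 1 passed it, where 20.4% of autosomal genes were as low. That gene was Pbx2, at -2.11 in MD1 and -0.93 in WT, and its level-matched D of -0.99 was within the limit. Meis1 had the largest positive value, at -0.43 in MD1 and -1.35 in WT, a D of 0.92. After level matching it was 1.13, past the limit, where 3.16% of autosomal genes were as high. Among 8 regulators that act on Hox clusters, including caudal and retinoic acid receptor genes, the median D was -0.05. By 2-fold none was higher, against 1.61% of autosomal genes, and 2 were lower, again near the autosomal share of 20.4%. The lower ones were the retinoic acid receptor genes Rarg (-1.70) and Rara (-1.24), and after level matching Rarg stood at -1.06 and Rara at -0.079. Gbx2, a homeobox gene of the hindbrain boundary, stood at 3.34 in MD1 and 2.40 in WT, a D of 0.93.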

How the data were processed

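H3K27me3 ChIP-seq of MD1 and WT fibroblasts was analysed from 1 table of the whole series with 1 value per gene and genotype. Per the file headers the deposited values are H3K27me3 enrichments, and their range, -7.41 to 4.45 in MD1 and -5.91 to 4.31 in WT, shows a log2 scale made by the authors. The build is mm9, per the submitters' processing notes. On the aligner, counting, filters and denominator no statement is given in the sources used here. Starts in the table count from 0 (end minus start equalled the RefSeq length for 9511 symbols, end minus start plus 1 for 620) and are printed counting from 1.

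In Python 3.11.15 with pandas 2.3.3 and numpy 2.4.6, D, percentiles among autosomal genes of the same genotype and level-matched D were computed without a pseudocount or filter. With 1 library of each kind no test was made. The scripts were tested on simulated data. Whole-number ratios were accepted up to 20000 at a relative tolerance of 1e-12, which 99.95% of MD1 and 99.98% of WT values met. Every HoxB gene, every gene inside the cluster, the 10 genes on each side, the paralogues and up to 4 genes per list with the largest absolute D were to be named. Members and lists were chosen with earlier results of these data known. Promoters are from RefSeq. Alternatives were pseudocounts of 0.01 and 1, a filter on mean level (percentile 25 and above), centring on the autosomal median, matching on the WT value, other limits and numbers of neighbours, non-overlapping genes and means.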

Additional observations from a re-analysis of the deposited data

How the results depend on the processing

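No paired analysis was possible because each genotype had 1 ChIP library and 1 input library, and for the same reason no replicate could be left out. The HoxB median D lay between 1.01 (pseudocount of 1) and 1.60 (centred on the autosomal median) under every alternative run. With no replicate spread, a median or a difference of medians was taken to have moved when it changed by over 1.5 times. The number of HoxB genes at least 2-fold higher, 7 as reported, was 5 with a pseudocount of 1, against 0.176% of autosomal genes. It was 8 after centring. Centring raises every D alike, and the share of autosomal genes past the limit after it was not computed. At a limit of 3-fold 2 HoxB genes were higher, Hoxb8 and Hoxb4, against 0.423% of autosomal genes. None was lower at 2-fold under any alternative run. The flanking median of -0.25 turned to 0.27 with the filter on mean level, to 0.025 with centring, to 0.31 with level matching and to 0.23 with matching on the WT value. It was -0.047 with a pseudocount of 1, -0.084 both for non-overlapping genes and for 20 genes each side, -0.40 for 5 genes each side and -0.40 as a mean, so neither its sign nor its size is settled. The cluster's median stood 0.96 above it after level matching, against 1.58 as reported. The gap between Hoxb4 to Hoxb8 and Hoxb1 to Hoxb3, 0.24 as reported, was 0.097 after level matching and 0.43 between means. HoxA had 2 genes at least 2-fold higher as reported, against 1.61% of autosomal genes, and 0 with a pseudocount of 1, against 0.176%. After level matching it had 1, against 3.16%. After centring HoxA had 5 and HoxD had 1, again without an autosomal share to set beside them, and the HoxD median D was -0.22. The shifts with centring follow from its adding the same amount to every D, and the cause of the other shifts was not tested. The SD over HoxB genes differed (MD1 minus WT) by -0.58 as reported, and by -0.36 with a pseudocount of 1, -0.34 without Hoxb13 and -0.18 among Hoxb2 to Hoxb9, settings chosen after the data were seen. Unknown depth limits the values of short genes most.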

Other observations

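Of 10 autosomal PRC2 genes, none was at least 2-fold higher in MD1, against 1.61% of autosomal genes, and 5 were at least 2-fold lower, against 20.4%. After level matching 1 was lower and the median D of -0.97 became 0.00. The largest difference was at Phf1, encoding a PRC2 accessory protein, at -4.84 in MD1 and -2.46 in WT. The catalytic subunit gene Ezh2 stood at -3.15 in MD1 and -2.23 in WT.

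Of 12 genes of Polycomb repressive complex 1, which binds H3K27me3, 4 were at least 2-fold lower, against 20.4% of autosomal genes, and none was higher. They were Ring1 (-2.41), Bmi1 (-1.85), Phc3 (-1.64) and Cbx8 (-1.60), and 3 of the 12 were at least 2-fold lower after level matching, against 3.41% of autosomal genes. Among 7 genes for trithorax proteins and an H3K27 demethylase, which act against Polycomb, 4 were lower, against the same 20.4%, and none was higher, and none was past the limit after level matching. The demethylase gene Kdm6b stood at -4.18 in MD1 and -3.15 in WT. These are levels of a histone mark and not of RNA or protein.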
